A study of Homo sapiens with 15 samples.

Results

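The 41 genes described here are NRF2 (gene symbol NFE2L2), its inhibitor KEAP1 and a panel of antioxidant and detoxification genes, chosen by symbol and matched through their Entrez numbers to rows of the deposited count table. All 41 were among its 28395 genes, and 40 of them passed the filter on low counts, as did 16740 genes in all. The remaining gene, SOD3, which encodes the secreted superoxide dismutase, had 0 counts in all 15 samples. The cells were BEAS-2B, an immortalized line derived from human bronchial epithelium, and the question was how an oxidative stress readout behaved under particle exposure. Exposed cells were kept in 50 µg/mL of polyethylene terephthalate nanoplastics (PET-NPLs) for 24 h, 15 weeks or 30 weeks. Control cells were passaged for the same time without particles. All groups were grown in DMEM with fetal bovine serum, non-essential amino acids and Plasmocin, an agent against mycoplasma. Each arm had 2 samples at 24 h and 2 at 15 weeks. At 30 weeks the controls numbered 3 and the exposed samples 4. By the labels, batch 1 holds everything up to 15 weeks and batch 2 everything at 30 weeks, and what a batch is they do not say. They also do not say whether samples of an arm came from separate cultures, so that the p-values measure only the spread between these samples.

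NRF2 is a transcription factor that is made continuously and degraded continuously. KEAP1 binds it in the cytosol and passes it to a ubiquitin ligase; oxidants and electrophiles modify cysteines of KEAP1, and NRF2 then escapes, enters the nucleus, pairs with a small MAF protein and binds the antioxidant response element. Because the control acts on the protein, NRF2 activity is commonly read from the transcripts of its targets, which make glutathione, reduce thioredoxin and quinones, supply NADPH, store iron and export conjugates. Other members of the panel, such as the superoxide dismutases and several peroxidases, are antioxidant enzymes with additional regulators.

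The element has the core letters TGACNNNGC, and the stretches below are shown because they hold these letters in promoters of the panel. A match of letters is a description only, as no binding was measured. RefSeq promoter windows (GRCh38.p14, 250 bases before to 50 after the start) were present for 33 of the 41 genes, as 45 windows because some genes have several starts. The core, searched on both strands, was in 9 of these 45 windows (20%), in 8 of the 33 genes, against 13.3% of 35116 promoter windows in all. The stretches that follow lie upstream of the start and are written 5′ to 3′ on the strand of the gene, with every match of the core, on either strand, in capitals. TXNRD1 is shown at both starts (chr12:104215655-104215714, then chr12:104286905-104286964, + strand), followed by GCLM (chr1:93909431-93909489, - strand), ME1 (chr6:83431154-83431213, - strand), KEAP1 (chr19:10502791-10502850, - strand) and GSTP1 (chr11:67583721-67583780, + strand).
TXNRD1: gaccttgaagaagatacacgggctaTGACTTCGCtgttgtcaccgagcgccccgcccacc
TXNRD1: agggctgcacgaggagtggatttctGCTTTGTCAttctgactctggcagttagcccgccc
GCLM: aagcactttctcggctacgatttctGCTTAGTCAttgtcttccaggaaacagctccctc
ME1: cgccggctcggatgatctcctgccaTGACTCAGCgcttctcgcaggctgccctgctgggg
KEAP1: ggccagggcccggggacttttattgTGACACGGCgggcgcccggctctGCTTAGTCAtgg
GSTP1: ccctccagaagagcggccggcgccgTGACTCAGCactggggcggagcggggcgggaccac
KEAP1 holds a pair of matches in this stretch. PGD and GPX2 also had a match upstream of the start, which is not shown. The core of ME1 and GSTP1 contains TGACTCA, the site of AP-1 factors, which on either strand was in 4.95% of all promoter windows. NQO1, SRXN1, GCLC and NFE2L2 had windows without the core, which says only that these letters are not in those windows.

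Sequencing depth was similar in all samples, at 23143202 to 31459990 counts (median 28605451). The libraries nevertheless differed in composition. In the 8 libraries of batch 1, 6 abundant small noncoding RNAs took 9.75% to 12.9% of counts. At 30 weeks their share was 22.3% to 31.03% in control libraries, and exposed libraries had 17.04% to 21.5%. Transcripts under 1 kb stood above those over 6 kb by 0.67 ± 0.31 on the log2 scale in the 30-week controls (SD, n = 3), by 0.24 ± 0.22 in the 30-week exposed cells (SD, n = 4), and lay below them by 0.26 to 0.44 in every batch 1 library. Exposed replicate 2 of 30 weeks stood apart, with a correlation of 0.976 to 0.981 with the other exposed libraries, across genes, against up to 0.9915 among the other 3. Its sum over the 41 genes was 10520 CPM (counts scaled to library size), against 7724 to 8633 in the other 3. Control replicate 1 of 30 weeks held the largest share of small RNAs and a scaling factor of 0.739. Results at 30 weeks are therefore also given without these libraries.

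The labelled bronchial epithelial type was checked by its markers. KRT8 and KRT18, keratins of simple epithelium, were abundant, whereas EPCAM and CDH1 stayed below 1 CPM in all samples and KRT5 was at 0 in every 15-week and 30-week sample. VIM, a mesenchymal intermediate filament gene, was at 1030.0 to 1877 CPM over the 15 samples. The 30-week controls stood apart from the other 12 samples in several markers. KRT8 was at 187, 136 and 127 CPM in them, against 450.1 to 710.1 CPM elsewhere, and KRT18 at 219.7, 179 and 184 CPM, against 287 to 383 CPM. KRT19 was low in all samples and lowest in them (0.358 to 1.07 against 1.49 to 12.1 CPM). Among mesenchymal markers, CDH2 was lower in them (75.4 to 86.1 against 153 to 194 CPM) and COL1A1 higher (21.5 to 89.02 against 4.35 to 18.98 CPM), whereas COL1A2 was lower (0 to 0.650 against 1.30 to 10.3 CPM). FBN1 was at 359 to 463 CPM in them and 187 to 282 CPM in the exposed cells of that time, with 228 to 404 CPM in the earlier samples. Of the leukocyte markers, CD68 was higher (23.6 to 30.7 against 6.16 to 17.3 CPM) and CD14 lower (1.29 to 1.82 against 2.14 to 7.14 CPM). The endothelial markers were low, with VWF at 0.215 to 0.650 CPM in the 30-week controls and 0.986 to 2.25 CPM in the exposed cells, CDH5 at 0 in these controls and 0.105 to 0.739 CPM in the exposed cells, and PECAM1 below 0.3 CPM in all samples. The summed level of 5 skeletal muscle markers was 54.5 to 55.7 CPM in them, against 3.20 to 6.10 CPM elsewhere. Most of that sum was CHRNA1, a subunit of the muscle acetylcholine receptor, at 47.99, 48.5 and 46.7 CPM. MYOG and DES were also higher, at 2.13 to 3.19 and 1.55 to 1.90 CPM, whereas MYH3 was not (2.65 to 3.44 against 3.02 to 6.10 CPM) and ACTA1 was near 0 in all samples. In bulk samples fewer cells of a type and less RNA per cell cannot be told apart. The part of this difference between the 30-week controls and the exposed cells in the results below was not tested.

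**Figure D1:**
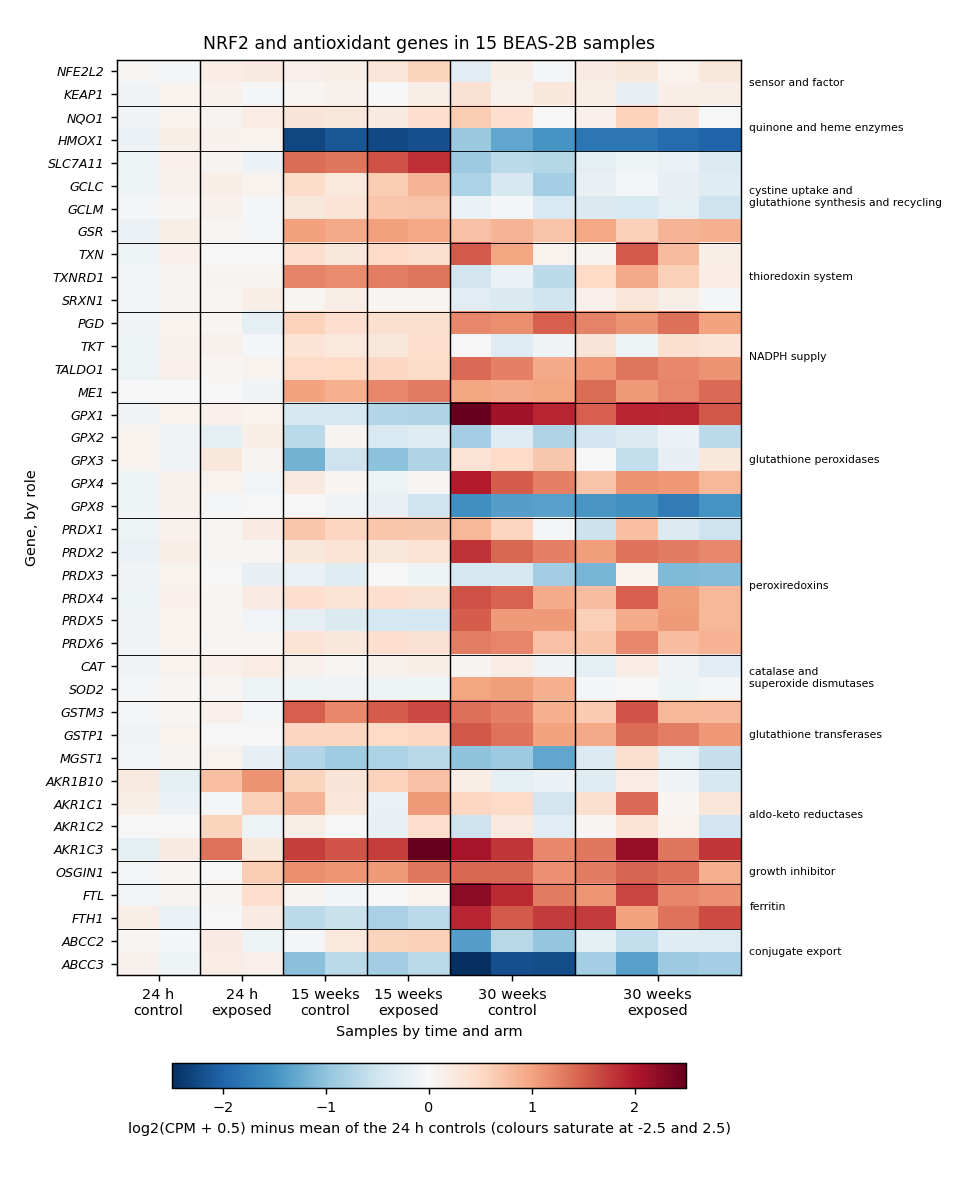
Level of the 40 tested genes (rows, grouped by role) in each of the 15 samples (columns, grouped by time and arm). Colour gives log2(CPM + 0.5) minus the mean of the 24 h controls; the colours saturate at -2.5 and 2.5, no member passed between the arms at 24 h or 15 weeks, and the 30-week columns differ from those of batch 1 in both arms for genes such as GPX1 and GPX8.

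After 30 weeks of exposure the panel moved in both directions. Of the 4 genes of cystine uptake and glutathione synthesis and recycling, SLC7A11 and GCLC were higher in exposed cells, and of the 3 genes of the thioredoxin system TXNRD1 and SRXN1. Also higher were the transferase MGST1 and the export pumps ABCC2 and ABCC3. The mitochondrial superoxide dismutase SOD2, the heme oxygenase HMOX1 and the peroxidases GPX1 and GPX4 were lower. NQO1 and GCLM, among the most used readouts of NRF2, did not pass the test. In total 11 of 40 genes passed (27.5%; 7 higher, 4 lower) by edgeR's quasi-likelihood test with Benjamini-Hochberg adjustment over all 16740 genes, against 23.7% of all genes tested. Of all genes, 12% were higher and 11.7% lower. The median log2 fold change of the 40 was -0.13 and that of all genes 0.01, and the medians of the absolute change were 0.30 and 0.30. The share of genes called was thus near that of the transcriptome. Without control replicate 1 the count was 7, with GCLC, GPX1, GPX4 and ABCC2 no longer passing, beside 14.9% of all genes. Without exposed replicate 2 it was 20, beside 34.2% of all genes, with TKT, ME1, PRDX1, PRDX3, PRDX4, PRDX5, PRDX6, GSTM3 and FTL added.

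NFE2L2 transcript was at 50.7, 69.9 and 59.8 CPM in the 30-week controls and at 71.8, 75.8, 66.1 and 76.01 CPM in the exposed cells. Control replicate 2 lay within the exposed range (log2 fold change 0.27, SE 0.12, adjusted p = 0.115, edgeR). Earlier, it was at 63.8 and 60.4 CPM in controls and 70.5 and 72.6 CPM in exposed cells at 24 h, and at 68.01 and 68.3 and 76.5 and 91.3 CPM at 15 weeks. The exposed mean was the higher at all 3 times, but no test passed over all samples (log2 fold change 0.20, SE 0.15, adjusted p = 1 at 24 h and log2 fold change 0.30, SE 0.15, adjusted p = 1 at 15 weeks, edgeR). Without control replicate 2 of 30 weeks, NFE2L2 passed at that time (log2 fold change 0.39, adjusted p = 0.0356, edgeR), and it did not pass without any other single library of 30 weeks. KEAP1 was at 122, 101 and 113 CPM in the 30-week controls and 104, 80.5, 104 and 105 CPM in the exposed cells, where the lowest value is that of exposed replicate 2 (log2 fold change -0.18, SE 0.12, adjusted p = 0.294, edgeR). At 24 h KEAP1 was at 88.05 and 98.6 CPM in controls and 101 and 90.5 CPM in exposed cells, and at 15 weeks at 96.6 and 100.5 and 93.1 and 104 CPM.

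NQO1, which reduces quinones by 2 electrons and so avoids semiquinone radicals, was at 626, 538 and 398 CPM in the 30-week controls and 439.6, 599, 502 and 403 CPM in exposed cells. The groups overlapped over most of their range (log2 fold change -0.10, SE 0.16, adjusted p = 0.705, edgeR). At 24 h it was at 376 and 429 CPM in controls and 422 and 459 CPM in exposed cells, and at 15 weeks at 502 and 492 and 467 and 541 CPM. NQO1 passed the threshold in no comparison, in either arm or at any time, and its values ran from 376 to 626 CPM over the whole series. HMOX1, which opens heme into biliverdin, carbon monoxide and iron, behaved differently. It was at 59.95, 46.5 and 40.9 CPM in the 30-week controls and at 32.5, 32.2, 29.9 and 28.3 CPM in exposed cells, without overlap (log2 fold change -0.68, SE 0.13, adjusted p = 0.00116, edgeR). At 24 h it was at 104 and 127 CPM in controls and 124 and 122 CPM in exposed cells, and at 15 weeks at 23.2 and 25.7 and 23.6 and 24.5 CPM. The level at 24 h was therefore the highest of the series in both arms, and the arms overlapped at 24 h and at 15 weeks.

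**Figure D2:**
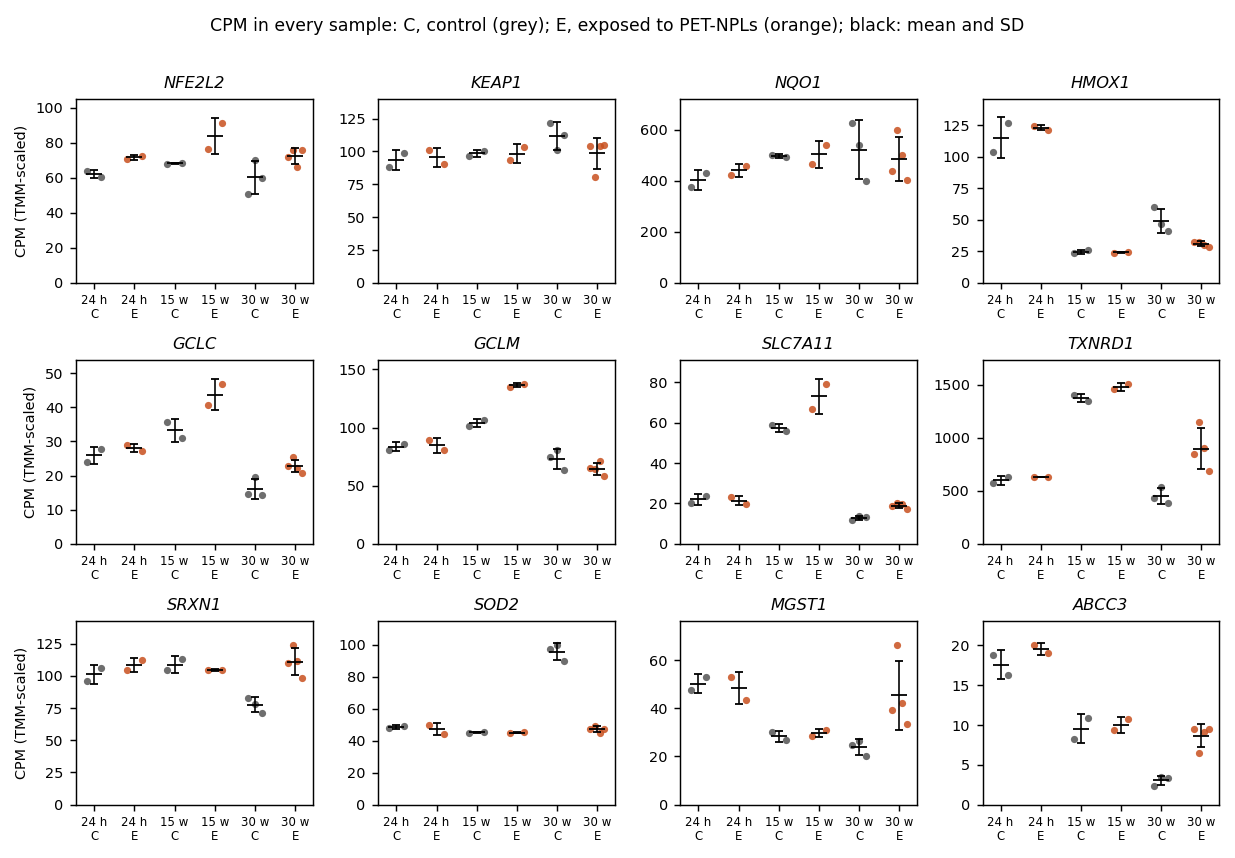
CPM in every sample for 12 members, by time (24 h, 15 weeks, 30 weeks) and arm (C, control, grey; E, exposed to PET-NPLs, orange), with the mean and SD in black and the vertical axis starting at 0. At 30 weeks the arms separate for HMOX1, GCLC, SLC7A11, TXNRD1, SRXN1, SOD2, MGST1 and ABCC3 and overlap for NFE2L2, KEAP1, NQO1 and GCLM.

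SLC7A11 is the cystine carrier of system xc-, which feeds glutathione synthesis. It was at 11.5, 13.5 and 13.1 CPM in the 30-week controls and at 18.7, 20.1, 19.5 and 17.1 CPM in exposed cells, so that every exposed sample lay above every control (log2 fold change 0.57, SE 0.12, adjusted p = 0.00255, edgeR). At 24 h the values were 20.1 and 23.8 CPM in controls and 23.01 and 19.6 CPM in exposed cells. At 15 weeks they were 58.7 and 55.9 and 67.04 and 79.3 CPM, the highest of the series, and did not pass the test (log2 fold change 0.35, SE 0.15, adjusted p = 0.977, edgeR). Both exposed samples lay above both controls, as for 3913 of all 16740 genes at that time, with 3676 separate the other way. GCLC, the catalytic subunit of glutamate-cysteine ligase, which catalyses the first step of glutathione synthesis, was at 14.7, 19.6 and 14.2 CPM in the 30-week controls and 22.7, 25.3, 22.4 and 20.9 CPM in exposed cells (log2 fold change 0.50, SE 0.13, adjusted p = 0.0129, edgeR). The groups did not overlap, the nearest values being 19.6 and 20.9 CPM, and the call was lost without control replicate 1 (adjusted p = 0.0629) or control replicate 3 (0.0558; edgeR). It was at 24.04 and 27.8 and 28.9 and 27.3 CPM at 24 h, and at 35.7 and 30.9 and 40.6 and 46.9 CPM at 15 weeks, in controls and exposed cells. The modifier subunit GCLM, which tunes the same enzyme, did not follow at 30 weeks. It was at 74.3, 81.05 and 63.7 CPM in controls and 64.8, 63.9, 70.8 and 58.2 CPM in exposed cells, with overlap (log2 fold change -0.18, SE 0.11, adjusted p = 0.259, edgeR). At 15 weeks it was at 101 and 106 CPM in controls and 135 and 138 CPM in exposed cells, after 80.7 and 86.1 and 89.3 and 80.2 CPM at 24 h. GSR, the reductase that regenerates glutathione, had a control mean of 157 ± 8.51 CPM (SD, n = 3) at 30 weeks, beside 164 ± 17.6 CPM (SD, n = 4) under exposure (log2 fold change 0.07, SE 0.11, adjusted p = 0.723, edgeR).

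TXNRD1 is the cytosolic thioredoxin reductase, a selenoprotein that passes electrons from NADPH to thioredoxin. It was at 434, 529.9 and 382 CPM in the 30-week controls and 846, 1152, 903 and 681 CPM in exposed cells. The lowest exposed sample lay above the highest control (log2 fold change 1.00, SE 0.16, adjusted p = 0.000334, edgeR). At 24 h it was at 569 and 627 CPM in controls and 628 and 627 CPM in exposed cells, and at 15 weeks at 1403 and 1350.0 and 1456 and 1508 CPM. The 15-week samples of both arms were above all 30-week samples. SRXN1, sulfiredoxin, which reactivates overoxidized peroxiredoxins, was at 83.2, 78.5 and 71.5 CPM in the 30-week controls and 109.9, 124, 112 and 98.7 CPM in exposed cells (log2 fold change 0.52, SE 0.11, adjusted p = 0.00259, edgeR). At 24 h it was at 96.1 and 106 CPM in controls and 105 and 113 CPM in exposed cells, and at 15 weeks at 104 and 113 and 104 and 105 CPM, all above the 30-week controls. TXN, the thioredoxin itself, spread widely in both 30-week arms, at 809, 553 and 295 CPM in controls and 292, 803, 479.8 and 311 CPM in exposed cells (log2 fold change -0.23, SE 0.32, adjusted p = 0.653, edgeR). Its high values were those of control replicate 1 and exposed replicate 2, the libraries described above as standing apart. Over 18 alternatives its log2 fold change ran from -0.61 to 0.16, with 2 changes of sign, and it passed under none.

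The glutathione peroxidases that passed the test were lower in exposed cells. GPX4, which reduces lipid hydroperoxides in membranes, was at 449.6, 321 and 271 CPM in the 30-week controls and 186, 247, 241 and 199.9 CPM in exposed cells, without overlap (log2 fold change -0.67, SE 0.16, adjusted p = 0.00608, edgeR). All 8 earlier samples lay lower, at 105 and 122 CPM in controls and 119.8 and 107 CPM in exposed cells at 24 h and at 133 and 117 and 104 and 115 CPM at 15 weeks. GPX1, the abundant cytosolic peroxidase, was at 720.0, 498 and 433 CPM in controls and 325, 434, 427 and 342 CPM in exposed cells (log2 fold change -0.53, SE 0.16, adjusted p = 0.0236, edgeR), where the lowest control was below the highest exposed sample. The GPX1 call was lost without control replicate 1 (log2 fold change -0.28, adjusted p = 0.199), exposed replicate 1 (0.0687) or exposed replicate 4 (0.0674), and that of GPX4 without control replicate 1 (-0.43, adjusted p = 0.0552; edgeR). GPX3, a secreted form, was at 3.10, 3.39 and 3.94 CPM in controls and 2.32, 1.33, 1.91 and 2.89 CPM in exposed cells, which did not overlap but just missed the threshold (log2 fold change -0.72, SE 0.26, adjusted p = 0.0547, edgeR), and it passed without exposed replicate 4 (-0.90, adjusted p = 0.028). GPX8, an enzyme of the endoplasmic reticulum, had a control mean of 27.4 ± 1.82 CPM (SD, n = 3), beside 24.98 ± 2.26 CPM (SD, n = 4) under exposure (log2 fold change -0.13, SE 0.12, adjusted p = 0.444, edgeR). GPX2 was close to the limit of detection, at 0 to 0.313 CPM over the 7 samples.

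The 6 peroxiredoxins, thiol peroxidases of cytosol, mitochondria, endoplasmic reticulum and peroxisomes, all had a negative log2 fold change at 30 weeks, from -0.54 for PRDX1 to -0.16 for PRDX3, and none passed the test. Their adjusted p ran from 0.063 for PRDX5 to 0.688 for PRDX3 (edgeR). In PRDX1 the controls were at 1097, 889 and 601 CPM and the exposed cells at 420.5, 1039, 487 and 431 CPM. Exposed replicate 2 alone lay among the controls. PRDX3, the mitochondrial member, was at 171, 176 and 127 CPM in controls and 104, 246, 108 and 109 CPM in exposed cells, with exposed replicate 2 above all others. Without that library PRDX1 and PRDX3 passed the test, at log2 fold changes of -0.95 and -0.57. PRDX5 passed without control replicate 2 or 3 or exposed replicate 2 or 3, with adjusted p of 0.0469, 0.0498 and 0.0423 without control replicate 2, control replicate 3 and exposed replicate 3 (edgeR).

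SOD2 gave the smallest adjusted p of the panel. This enzyme of the mitochondrial matrix turns superoxide into hydrogen peroxide. It was at 97.02, 99.9 and 89.8 CPM in the 30-week controls and at 47.4, 49.02, 44.7 and 47.5 CPM in exposed cells (log2 fold change -1.02, SE 0.09, adjusted p = 8.05e-07, edgeR). At 24 h it was at 47.8 and 49.2 CPM in controls and 49.6 and 44.3 CPM in exposed cells, and at 15 weeks at 44.9 and 45.4 and 44.98 and 45.2 CPM. The exposed cells at 30 weeks were within the range of the 8 earlier samples, and the 30-week controls were the only group outside it. Catalase (CAT) had a control mean of 48.6 ± 4.58 CPM (SD, n = 3) at 30 weeks, beside 43.9 ± 6.58 CPM (SD, n = 4) under exposure (log2 fold change -0.15, SE 0.12, adjusted p = 0.422, edgeR).

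Among the glutathione transferases, MGST1, a membrane-bound enzyme of the endoplasmic reticulum and mitochondria, was at 24.7, 26.5 and 20.04 CPM in the 30-week controls and 39.4, 66.3, 42.2 and 33.5 CPM in exposed cells. The groups were separate, with exposed replicate 2 highest (log2 fold change 0.93, SE 0.19, adjusted p = 0.0021, edgeR). At 24 h it was at 47.5 and 52.9 CPM in controls and 53.1 and 43.6 CPM in exposed cells, and at 15 weeks at 30.01 and 26.7 and 28.6 and 30.96 CPM. GSTM3 and GSTP1 did not pass (log2 fold change -0.17, SE 0.19, adjusted p = 0.567 and log2 fold change -0.13, SE 0.14, adjusted p = 0.527, edgeR). The export pumps both passed. ABCC3, which carries glutathione and glucuronide conjugates out of cells, was at 2.37, 3.43 and 3.36 CPM in controls and 9.53, 6.48, 9.14 and 9.54 CPM in exposed cells (log2 fold change 1.499, SE 0.18, adjusted p = 2.07e-05, edgeR), the largest log2 fold change in size among the 11 genes called. In the earlier samples it was at 18.8 and 16.3 CPM in controls and 20.1 and 19.1 CPM in exposed cells at 24 h, and at 8.24 and 10.8 and 9.34 and 10.7 CPM at 15 weeks. ABCC2 was low, at 0.430, 1.01 and 0.752 CPM in controls and 1.56, 1.09, 1.46 and 1.44 CPM in exposed cells (log2 fold change 0.90, SE 0.28, adjusted p = 0.0263, edgeR), after 2.01 and 1.85 CPM in controls and 2.30 and 1.72 CPM in exposed cells at 24 h and 1.90 and 2.42 and 3.07 and 3.15 CPM at 15 weeks. The ABCC2 call was lost without control replicate 1 or 3 or exposed replicate 1, 3 or 4, with adjusted p from 0.0514 to 0.118 (edgeR). The arms were separate for both pumps, as for 12 members in all (8 higher, 4 lower) against 27.3% of all genes tested.

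Of the enzymes that supply NADPH, none passed. ME1, the cytosolic malic enzyme, had separate groups at 46.9, 46.2 and 47.2 CPM in controls and 62.4, 49.5, 55.2 and 64.1 CPM in exposed cells and an adjusted p at the threshold (log2 fold change 0.31, SE 0.11, adjusted p = 0.05, edgeR). TKT, transketolase, was close to it as well (log2 fold change 0.38, SE 0.14, adjusted p = 0.0586), and PGD (log2 fold change -0.10, SE 0.12, adjusted p = 0.614) and TALDO1 (log2 fold change -0.03, SE 0.12, adjusted p = 0.912) of the pentose phosphate pathway were not. The ferritin chains, which store iron, were FTL at 3173, 2433 and 1637 CPM in controls and 1437, 2139, 1563 and 1476 CPM in exposed cells (log2 fold change -0.55, SE 0.20, adjusted p = 0.0536) and FTH1 at 549.8, 423 and 489.6 and 494, 294, 376 and 453 CPM (log2 fold change -0.27, SE 0.16, adjusted p = 0.249). FTL passed without control replicate 3 (log2 fold change -0.76, adjusted p = 0.0063) and without exposed replicate 2. The counts of both ferritin chains are uncertain because they have many processed copies in the genome and how reads with several matches were counted is not given in the sources used here. The same holds for the aldo-keto reductases AKR1C1, AKR1C2 and AKR1C3, close paralogs that can share reads. AKR1C3 was at 5.63, 4.58 and 2.90 CPM in controls and 3.19, 6.20, 3.23 and 4.61 CPM in exposed cells (log2 fold change -0.02, SE 0.41, adjusted p = 0.986), and AKR1C1, AKR1C2 and AKR1B10 were at or below about 2 CPM everywhere. OSGIN1, an oxidative stress induced growth inhibitor, had a control mean of 3.56 ± 0.453 CPM (SD, n = 3), beside 3.35 ± 0.616 CPM (SD, n = 4) under exposure (log2 fold change -0.09, SE 0.21, adjusted p = 0.813). All p-values here are from edgeR.

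**Figure D3:**
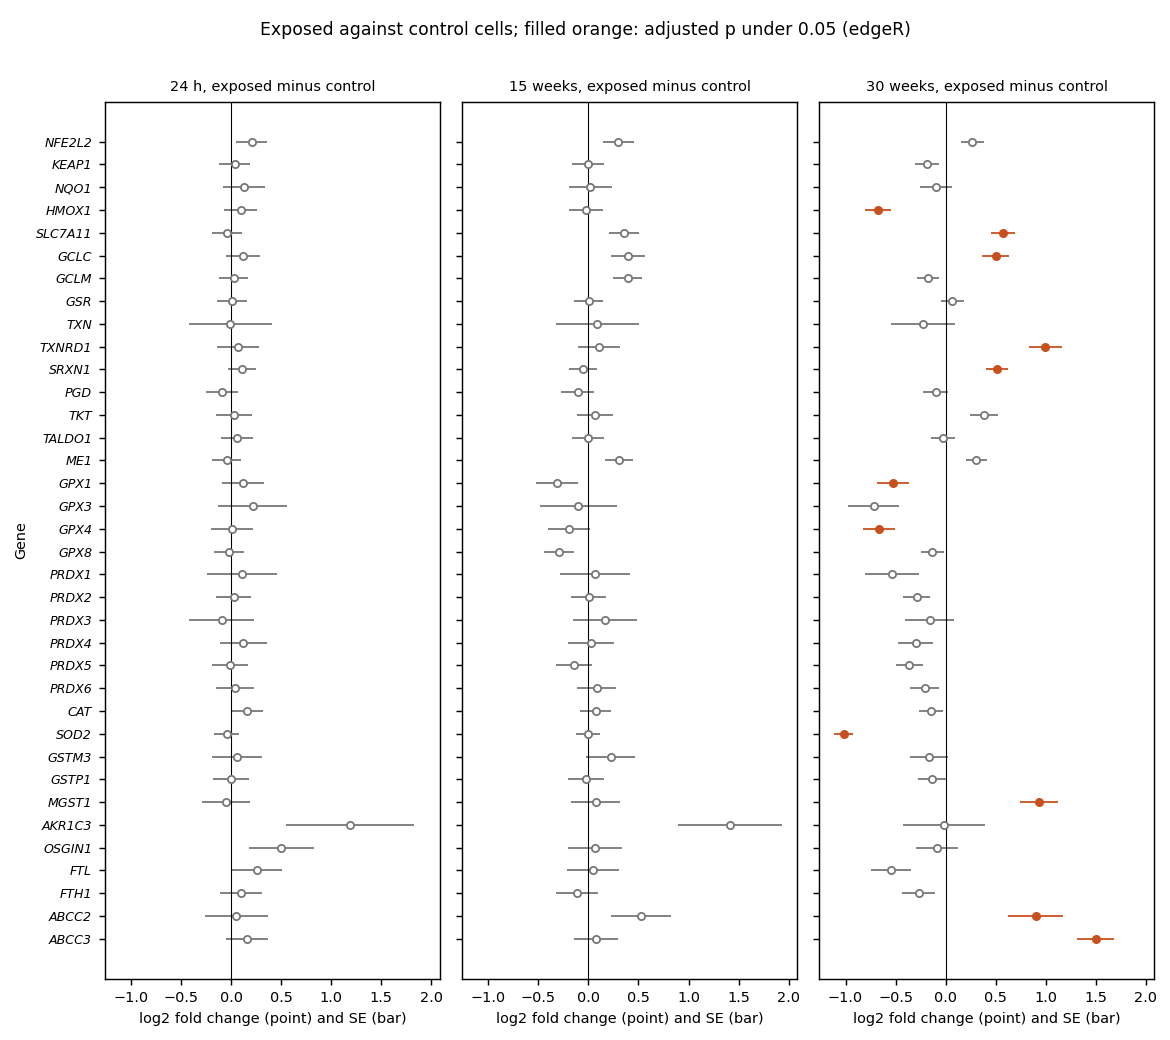
log2 fold change of exposed against control cells (points) with its SE (bars) for 36 members at 24 h, 15 weeks and 30 weeks; filled orange points have an adjusted p under 0.05. GPX2, AKR1B10, AKR1C1 and AKR1C2 are left out for their low counts. No point is filled at 24 h or 15 weeks and 11 are at 30 weeks.

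Per length, the abundance order of the panel can be compared between genes. On the scale of CPM per kb of the canonical transcript, the most abundant members of the 30-week controls were FTL at 2773, PRDX1 at 912, TXN at 749, GSTP1 at 686, GPX1 at 612 and GPX4 at 408. All of these transcripts are under 1 kb, a class that stood high in the 30-week controls. At 30 weeks the genes called higher lay below these in level, with TXNRD1 at 116 in controls and 232 in exposed cells, MGST1 at 25.7 and 49.04, SRXN1 at 30.7 and 43.95, GCLC at 4.26 and 6.03, and SLC7A11 at 1.32 and 1.96. The order differed earlier. TXNRD1 was at 155 in the 24 h controls and 357 in the 15-week controls, above GPX1 (129 and 95.6) and GPX4 (133 and 147). FTL, PRDX1, TXN and GSTP1 stayed above TXNRD1 in both. The values that follow are again of 30-week controls and exposed cells. NFE2L2 itself was at 24.6 and 29.6.

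Transcript length moved with the change at 30 weeks across the transcriptome. The median log2 fold change was -0.30 for the 1793 genes under 1 kb and 0.16 for the 2651 genes over 6 kb. It was -0.30 for the 11 members under 1 kb, which include GPX1, GPX4, FTL, TXN, GSTP1 and 4 peroxiredoxins. The 7 members called higher had a median length of 3860 bases, and the 4 called lower one of 1226.5 bases. There were exceptions in both directions. MGST1, of 925 bases, was higher in exposed cells, and SOD2, whose canonical transcript has 14167 bases, was lower. All lengths are those of the annotated canonical transcript. Which transcripts of a gene the cells made was not tested, so the length class of a gene with several transcripts, such as SOD2, is uncertain. When the trend of each library on transcript length was removed, an alternative chosen after the data were seen, the same 11 genes were called. The log2 fold change of GPX1 was then -0.31 with an adjusted p of 0.049 and that of GPX4 -0.43 with an adjusted p of 0.00991, whereas TXNRD1 was at 0.94, SOD2 at -1.15 (1.38e-06) and MGST1 at 1.12. The peroxiredoxins were then between -0.36 for PRDX1 and -0.07 for PRDX2, and none passed.

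At 15 weeks none of the 40 members passed the test, as was true of all genes (0% of 16740), in the fit over all samples. That fit shares its estimate of the spread between all times. The biological coefficient of variation, a measure of the spread between replicates, was 0.078 at 15 weeks, 0.108 at 24 h and 0.199 at 30 weeks. The SE and adjusted p at 15 weeks and 24 h thus include the spread at 30 weeks. The paper, with limma-voom and surrogate variables, did report genes that differed at 15 weeks. The unadjusted p was under 0.05 for 5 members, SLC7A11, GCLC, GCLM, ME1 and AKR1C3, all higher in exposed cells, and for 823 genes of the table. GCLM was separate between the arms (log2 fold change 0.39, SE 0.14, adjusted p = 0.909), and so were GCLC (log2 fold change 0.39, SE 0.17, adjusted p = 0.985), SLC7A11 and ME1, which was at 47.9 and 44.2 CPM in controls and 54.8 and 59.1 CPM in exposed cells (log2 fold change 0.31, SE 0.14, adjusted p = 0.996, edgeR). With 2 samples per arm, 12 of the 40 members were separate and higher and 6 separate and lower, against 3913 and 3676 of all 16740 genes. AKR1C3 rested on 1 library, at 4.42 and 3.86 CPM in controls and 4.37 and 17.7 CPM in exposed cells. When each time point was fitted alone, GCLM (log2 fold change 0.38, adjusted p = 0.0168) and GPX1 (-0.33, adjusted p = 0.0456) passed (edgeR). The log2 fold changes of TXNRD1, SRXN1, NQO1 and HMOX1 at this time lay between -0.06 and 0.11.

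At 24 h, the acute exposure, no member and no other gene passed either (0% of 16740), and 277 genes, AKR1B10 alone among the members, had an unadjusted p under 0.05 (edgeR). AKR1B10 was at 0.381 and 0.140 CPM in controls and 0.766 and 1.14 CPM in exposed cells. The log2 fold changes of the canonical targets were 0.13 for NQO1, 0.09 for HMOX1, 0.02 for GCLM, 0.07 for TXNRD1, 0.10 for SRXN1 and -0.04 for SLC7A11, with SE between 0.14 and 0.21. None of these exceeded its SE. GCLC, the remaining canonical target, had a log2 fold change of 0.12, with overlap between the arms.

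Whether the exposure effect itself differed between 30 and 15 weeks was tested as a difference of the 2 log2 fold changes. This crosses the batches, and a batch that acted differently on the arms cannot be told apart from time. It passed for 2 members (5.0%) against 4.74% of all genes tested. SOD2 had a log2 fold change of -0.00 at 15 weeks and -1.02 at 30 weeks (difference -1.02, adjusted p = 0.000823, edgeR). ABCC3 had 0.07 and 1.499 (difference 1.43, adjusted p = 0.00642, edgeR). The ABCC3 call was lost without control replicate 2 or exposed replicate 1 of 15 weeks, while that of SOD2 held without any single library of 15 or 30 weeks. TXNRD1 (0.89, adjusted p = 0.0713), SRXN1 (0.57, 0.0868), GCLM (-0.57, 0.0944) and HMOX1 (-0.65, 0.111) did not reach the threshold (edgeR), and without exposed replicate 2 of 30 weeks the count was 9 beside 9.1% of all genes, with these genes among them. Without control replicate 3 of 30 weeks it was 4 beside 4.56%, with HMOX1 and GCLM added. For GCLC, SLC7A11, ME1 and NFE2L2 the difference was between -0.03 and 0.22.

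The times in culture were also compared within each arm. Between 24 h and 15 weeks, within batch 1, 15 of 40 members passed in the control cells (10 higher, 5 lower at 15 weeks), against 24.9% of all genes tested, and 17 in the exposed cells (11 higher, 6 lower), against 26%. In the control cells HMOX1 fell, with a log2 fold change of -2.24, and in the exposed cells it fell likewise (-2.36). SLC7A11 rose by 1.38 and 1.78, TXNRD1 by 1.20 and 1.24, GSR by 0.99 and 0.98, ME1 by 0.97 and 1.32, and GSTM3 by 1.37 and 1.54, in control and exposed cells respectively. Leaving out either control library of 24 h or of 15 weeks brought the control count to 7 to 9, beside 14.3% to 15.5% of all genes, and leaving out exposed replicate 2 of 24 h or either exposed library of 15 weeks brought the exposed count to 10 or 11, beside 14.6% to 15.4%. ABCC3, MGST1, GPX3 and FTH1 fell in both arms. GCLC, GCLM and GPX1 passed in the exposed cells (0.64, 0.69 and -0.86) and not in the controls (0.36, 0.32 and -0.43), and TALDO1 passed in the controls (0.49, adjusted p = 0.0368) and not in the exposed cells (0.42, 0.0655; edgeR). The difference between arms was not tested over these times. HMOX1 thus fell while SLC7A11, GSR and TXNRD1 rose over the first 15 weeks in both arms.

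Between 15 and 30 weeks time and batch cannot be told apart. In the controls 23 of 40 members passed (14 higher, 9 lower at 30 weeks) against 50.3% of all genes tested, and in the exposed cells 22 (13 higher, 9 lower) against 46%. The log2 change from 15 to 30 weeks was 2.68 in controls and 2.47 in exposed cells for GPX1, 2.35 and 2.20 for FTH1, 1.86 and 1.26 for FTL, 1.47 and 1.00 for GPX4, and 1.53 and 1.31 for PRDX5, transcripts of 851 to 1203 bases. It was -2.17 and -1.95 for SLC7A11, -1.62 and -0.73 for TXNRD1, -1.04 and -0.94 for GCLC, and -1.39 and -1.23 for GPX8. Genes under 1 kb had a median of 0.66 in the controls over this step, and genes over 6 kb one of -0.30. SOD2 stood at 1.08 in controls and 0.07 in exposed cells, HMOX1 at 1.01 and 0.36, and ABCC3 at -1.64 and -0.21. These values share the 30-week samples with the exposure comparison above, and are given side by side only.

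Of 78 further genes of the pathway, listed by role, 75 were tested and 19 passed at 30 weeks (25.3%; 13 higher, 6 lower), close to the 23.7% of all genes. The 8 with the smallest adjusted p are named here. BACH1, which competes with NRF2 for the element and represses HMOX1, was at 49.1, 55.6 and 51.1 CPM in controls and 70.3, 77.1, 64.2 and 70.2 CPM in exposed cells (log2 fold change 0.44, SE 0.10, adjusted p = 0.00451, edgeR). The carbonyl reductases CBR3 and CBR1 were higher in exposed cells (log2 fold change 1.06, SE 0.17, adjusted p = 0.000343 and log2 fold change 0.42, SE 0.11, adjusted p = 0.0114), as were ALDH3A2, a dehydrogenase of fatty aldehydes (log2 fold change 0.72, SE 0.11, adjusted p = 0.0002), and MSRB3, a methionine sulfoxide reductase (log2 fold change 0.76, SE 0.11, adjusted p = 0.000164). CBR3 was at 15.4, 14.98 and 12.3 CPM in controls and 26.9, 39.7, 30.6 and 21.3 CPM in exposed cells, without overlap. TXNRD2, the mitochondrial thioredoxin reductase, was lower (log2 fold change -0.84, SE 0.13, adjusted p = 0.000259), at 178, 139 and 122 CPM in controls and 75.7, 92.6, 83.8 and 75.1 CPM in exposed cells, so that the cytosolic and mitochondrial reductases moved apart. The glutathione-degrading enzymes GGT1 and CHAC1 were lower as well (log2 fold change -1.66, SE 0.36, adjusted p = 0.00339 and log2 fold change -1.24, SE 0.28, adjusted p = 0.00412), though both were under 3 CPM in every sample. Without control replicate 1 of 30 weeks 11 of the 75 passed, beside 14.9% of all genes, and without control replicate 2 also 11, beside 21.5%. Without exposed replicate 1 the count was 12 beside 18.2%, and without exposed replicate 2 it was 26 beside 34.2%.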

How the data were processed

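RNA-seq libraries (stranded total RNA, ribosomal RNA removed) of BEAS-2B cells were sequenced. The authors used Rfastp to filter reads and Rsubread to count them on GRCh38 (featureCounts and hg38 in the submitters' processing notes); the deposited values are raw counts. How strand and multiply matching reads were counted is not given in the sources used here.

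Here genes were filtered with filterByExpr, scaled by TMM and tested with edgeR 4.0.16 in R 4.3.3 (quasi-likelihood, 1 fit over all 15 samples and 6 conditions, threshold 0.05 after Benjamini-Hochberg adjustment over 16740 genes). CPM values use the TMM-scaled library. On simulated data for 15 and 30 weeks, 99.5% of 200 genes changed 4-fold were found among 16508 genes. False calls numbered 10 at 15 weeks and 16 at 30 weeks (edgeR). The changed genes were picked among those with ample counts, and the spread was pooled over all samples. No member called here changed as much as 4-fold, and smaller changes were not simulated, so the share found does not carry over to the members. Alternatives used DESeq2 1.42.0, limma 3.58.1 and sva 3.50.0. Lengths are of GENCODE canonical transcripts (40 of 40 members; 95.7% of genes tested). Members and lists were chosen with earlier results of these data known. Values in every sample are given for NFE2L2, KEAP1, 7 canonical targets and members called at 30 weeks with separate groups. At 30 weeks they are also given for GPX1, which overlapped, and for members that did not pass. These are TXN, PRDX1, PRDX3, GPX3, ME1, FTL, FTH1 and AKR1C3. Of the other pathway genes, the 8 with the smallest adjusted p are named.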

Additional observations from a re-analysis of the deposited data

Results flagged for a closer look

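In 5 of the 40 members tested, exposed replicate 2 of 30 weeks lay far from the other 3 exposed samples of that time. Genes outside the panel were not examined in this way, so no share over all genes can be set beside this count. The library stood apart across genes in general, with a correlation of 0.976 to 0.981 with the other exposed libraries. Exposed replicate 2 held 80.5 CPM of KEAP1, 1039 CPM of PRDX1, 246.1 CPM of PRDX3, 82.1 CPM of GSTM3 and 6.48 CPM of ABCC3. Chance alone gives such a gap in about 1 of 20 groups, and only the 4 exposed samples of 30 weeks could be examined in this way. The exposure effect differed between 30 and 15 weeks by a test of the difference itself for SOD2 (-1.02 on the log2 scale) and ABCC3 (1.43). In SOD2 the exposed samples of 30 weeks kept the level of the earlier samples and the 30-week controls did not, and the 30-week controls also differed in KRT8, KRT18, CDH2, COL1A1, COL1A2, CD68, CD14 and CHRNA1, whose part was not tested.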

How the results depend on the processing

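HMOX1, TXNRD1, SRXN1, SLC7A11, SOD2, MGST1 and ABCC3 passed at 30 weeks under all 18 alternatives, GPX4 under 17, GCLC under 15, GPX1 under 13 and ABCC2 under 9, and no called gene changed direction. With each time point fitted alone, GCLC, GPX1 and ABCC2 no longer passed at 30 weeks, beside 15.3% of all genes. Those calls thus depend on sharing the spread with the earlier samples. Against 11 members in the fit over all samples, limma-voom with 2 surrogate variables called 18 (30.5% of all genes) and leaving out single libraries 7 to 20 (14.9% to 34.2%). Of the other pathway genes, 9 of 73 passed with each time point fitted alone (15.3% of all genes) and 7 of 75 at an adjusted p under 0.01 (12.9%), against 19, and 11 to 26 without single libraries (14.9% to 34.2%). With each time point fitted alone, 2 members passed at 15 weeks (1.96% of all genes). The difference between 30 and 15 weeks was called for 5 members by DESeq2 (6.63% of all genes), 11 by limma-voom with 2 surrogate variables (13.4%), 6 without both control replicate 1 and exposed replicate 2 (8.09%; chosen after seeing the data), and 1 to 9 without single libraries (2.27% to 9.1%), against 2. Between 15 weeks and 24 h, the controls gave 24 calls with surrogate variables (39.1% of all genes), 8 at an adjusted p under 0.01 (14.8%) and 7 to 9 without single libraries (14.3% to 15.5%), against 15, and the exposed cells 11 at the stricter threshold (15.2%) and 10 to 13 without single libraries (14.6% to 16.8%), against 17. Same-numbered control and exposed samples deviated together in replicate 2 of 30 weeks and little or not in the others (r of -0.06 at 24 h, 0.03 at 15 weeks, and -0.12, 0.30 and 0.10 at 30 weeks). With 2 samples per arm, both numbers of a time give the same r. The numbers were not taken as pairs. With the replicate number as a block, 10 members passed at 30 weeks (19.1% of all genes; GPX1 with an adjusted p of 0.0891 and ABCC2 with 0.0745 no longer passed, and GPX3 with 0.0367 did) and 4 in the difference between 30 and 15 weeks (4%). Depth limited AKR1B10, AKR1C1, AKR1C2 and GPX2.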
